A study of Drosophila melanogaster with 12 samples.

Results

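Cells of the future wing hinge (POS) were compared with the remaining cells of the wing disc (NEG) at 48 h after X-irradiation, with 2 libraries of each, which are 4 of the 12 libraries sequenced. A library was included when its labels gave wing disc tissue, sorting as POS or NEG and a time of 48 h after IR, and no expression value was used to choose it. Larvae were described as w1118/+ or Y, with 1 copy of 30A-GAL4>UAS-G-trace. Their mothers carried G-trace and their fathers were w1118. In this lineage reporter RFP shows where the 30A driver is active and GFP marks cells with past activity together with their descendants. RFP+GFP+ cells were collected as POS and RFP-GFP- cells as NEG from dissociated discs after 4000 R. The other 8 libraries were the same sorts at IR+24h and without IR (-IR, taken 24 h after mock treatment), and they are used here only where a value at IR+48h is set beside them.

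Several features of the model bear on every value below. NEG cells are a mixture of pouch, notum and whatever other cells adhere to a dissected disc, whereas POS cells come from 1 driver domain. The driver is inserted in an intron of ds and covers only a subset of the cells that express ds. Each library pooled discs from several crosses, dissociations and sorts, and the 2 libraries of a group are described as independent samples. Cells that had lost RFP but kept GFP were not collected. Larvae at IR+48h were of mixed age, with egg collection closed 3 or 4 days before irradiation, and no -IR discs were taken at 48 h, so a difference from -IR can include age as well as IR, and the contributions cannot be told apart. In bulk RNA from sorted pools, fewer cells of a type and less RNA per cell cannot be told apart either.

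The wing disc is an epithelial sheet in which the pouch gives rise to the wing blade, the notum to the back of the thorax and the hinge to the joint between them. The hinge is specified by transcription factors such as Zfh2, Homothorax and Teashirt under the influence of Wingless, a Wnt ligand, and of the JAK/STAT pathway, which is activated by secreted Unpaired cytokines. Below the notum lies a layer of muscle precursors, and hemocytes, the blood cells of the larva, can attach to the disc, particularly after damage.

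The 4 libraries held 18397158 and 14886848 counts in NEG and 19940040 and 14991652 in POS, and a floor of 3 counts was 0.146 to 0.203 CPM (counts per 1000000 of the TMM-scaled total). Over all 12 libraries the totals lay between 4211088 (NEG -IR replicate 1) and 19940040. Of 17753 genes in the table, 10617 had enough counts to be tested, with a biological coefficient of variation of 0.303. Replicates within each group differed by more than counting error, with a chi-square per degree of freedom of 35.2 in NEG and 12.8 in POS at IR+48h, so each was counted as a separate sample. Positions are on the Release 6 genome, from Ensembl's BDGP6.54 annotation.

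At IR+48h, 35 of 10617 genes (0.330%) differed between POS and NEG at an adjusted p under 0.05 (edgeR quasi-likelihood test, two-sided, Benjamini-Hochberg over all genes tested). Of these, 18 (0.170%) were higher in POS and 17 (0.160%) were lower. The 18 included the hinge genes zfh2, Sox15, upd1 and ds, and the 17 included the hemocyte genes Hml, He, NimB1 and Sr-CI together with the notum gene tup and the muscle precursor gene htl. Each of the 35 went the same way in each of the 4 possible POS and NEG library pairings and changed by more than 1 on the log2 scale. Before adjustment 664 genes (6.25%) had a p under 0.05. The count fell to 15 without NEG replicate 1, to 7 without NEG replicate 2, to 12 without POS replicate 1 and to 14 without POS replicate 2, and 5 genes (Hml, bnb, tra, zfh2 and Sox15) passed in each of these reduced fits. When the shared replicate number was added to the edgeR fit as a block within each time point, 270 genes (2.54%) passed, the 35 among them. Where a gene given below as not past the threshold passed in that fit, its adjusted p there is added as the blocked adjusted p. limma voom called 51 of the 10617 genes and DESeq2 130. These counts, the 270 of the blocked fit and the 6.25% before adjustment are the values for all genes to set beside the list counts below. Non-overlap of the 2 POS and 2 NEG libraries by itself was common, since 2306 genes (21.7%) had both POS libraries above both NEG libraries and 2225 (21.0%) had both below.

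Hinge genes made up 4 of the 18 genes higher in POS, which bears on the label of the sort. The 7 listed hinge and proximal wing genes summed to 2216 and 2486 CPM in NEG and to 5991 and 6207 CPM in POS. zfh2 (FBgn0004607, chromosome 4, 501810 to 540874), which encodes a zinc finger homeodomain transcription factor of the proximal wing, was measured at 226 and 275 CPM in NEG and at 1822 and 1954 CPM in POS. Both POS libraries were far above both NEG libraries, with a log2 fold change of 2.92 (SE 0.260, edgeR adjusted p = 5.02e-04). SE is an approximate standard error, the absolute log2 fold change divided by the square root of the F statistic of the test. Of its exon bases, 18.7% are shared with Tdg, which is transcribed from the other strand, and whether counting used strand is not stated. Sox15 (FBgn0005613, chromosome 2R, 14201390 to 14212413), an HMG-box transcription factor expressed in the hinge, was at 34.9 and 37.9 CPM in NEG and at 420 and 481 CPM in POS. Its log2 fold change of 3.63 (SE 0.326, edgeR adjusted p = 5.02e-04) was 12.4-fold in mean CPM.

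The gene adjacent to Sox15 moved with it. VGAT (FBgn0033911, chromosome 2R, 14198478 to 14201249), which encodes the vesicular GABA transporter, lies 140 bases from Sox15 on the same strand. It was at 2.43 and 1.01 CPM in NEG and at 23.8 and 25.4 CPM in POS, the highest log2 fold change among the 18 genes at 3.81 (SE 0.514, edgeR adjusted p = 0.00729). Neither gene overlapped between the groups. Whether reads of one gene were counted for the other was not tested.

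upd1 (FBgn0004956, chromosome X, 18305354 to 18309291), a ligand of the JAK/STAT receptor Domeless, was at 4.0 and 4.53 CPM in NEG and 37 and 32.8 CPM in POS. The groups did not overlap and differed by 3.03 on the log2 scale (SE 0.492, edgeR adjusted p = 0.0278). ds (FBgn0284247, chromosome 2L, 640013 to 714983), the gene that carries the driver, encodes a protocadherin that binds Fat in planar polarity and growth control. It was at 879 and 796 CPM in NEG and at 2197 and 2014 CPM in POS, a 2.51-fold difference in mean CPM (log2 fold change 1.33, SE 0.179, edgeR adjusted p = 0.00729).

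Of the 7 listed hinge and proximal wing genes, these 4 passed the test, and 6 had both POS libraries above both NEG libraries (85.7%, beside 21.7% of all genes). The median log2 fold change of the list was 1.33, beside 0.01 for all genes tested. wg, which encodes Wingless, was at 25.5 and 26.5 CPM in NEG and 47.7 and 61.4 CPM in POS, and its log2 fold change of 1.07 did not pass (edgeR adjusted p = 0.257, blocked adjusted p = 0.0402). hth, encoding the homeodomain protein Homothorax, had a log2 fold change of 0.48 (edgeR adjusted p = 0.891). tsh, encoding the zinc finger protein Teashirt, overlapped between the groups at 256 and 329 CPM in NEG and 290 and 331 CPM in POS. The list and the driver are not independent for ds, where the driver is inserted. The list was also written with earlier results of these data known, and the paper reports zfh2, upd1, Sox15 and ds as higher in POS without IR. Its counts are therefore no independent evidence of a direction.

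**Figure D1:**
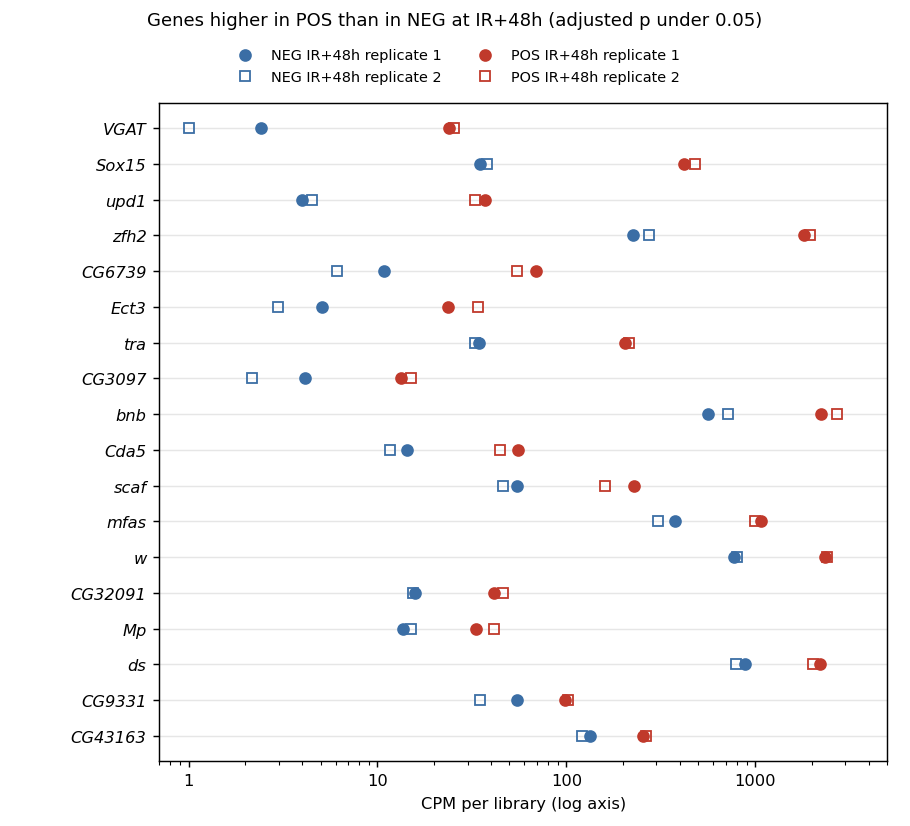
CPM on a log axis (horizontal) of the 18 genes higher in POS at IR+48h (vertical, ordered by log2 fold change), with 1 point per library (blue NEG, red POS; filled circles replicate 1, open squares replicate 2). The red points lie to the right of the blue points for each gene, from 1.01 and 2.43 CPM against 23.8 and 25.4 CPM for VGAT to 121 and 134 CPM against 256 and 263 CPM for CG43163.

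The other genes higher in POS included secreted and cell surface proteins. bnb (FBgn0001090, chromosome X, 18794246 to 18797687) was at 562 and 714 CPM in NEG and 2238 and 2721 CPM in POS. Its log2 fold change was 1.96 (SE 0.188, edgeR adjusted p = 7.73e-04). mfas (FBgn0260745, chromosome 3R, 11984862 to 11993315), which encodes the adhesion protein Midline fasciclin, was at 375 and 307 CPM in NEG and 1071 and 1003 CPM in POS, a log2 fold change of 1.61 (edgeR adjusted p = 0.0278). Ect3, a predicted beta-galactosidase whose gene lies 5962 bases from mfas on the opposite strand, was at 5.08 and 2.98 CPM in NEG and 23.5 and 34.1 CPM in POS (log2 fold change 2.83, edgeR adjusted p = 0.0461). None of these groups overlapped.

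scaf (FBgn0033033, chromosome 2R, 5676750 to 5691723) encodes Scarface, a secreted relative of serine proteases. It was at 54.9 and 46.3 CPM in NEG and 228 and 160 CPM in POS, with a log2 fold change of 1.94 (SE 0.248, edgeR adjusted p = 0.00625). Cda5, a chitin deacetylase-like protein, was at 14.4 and 11.6 CPM in NEG and 55.6 and 44.3 CPM in POS (log2 fold change 1.94, edgeR adjusted p = 0.00625). The uncharacterised gene CG6739 was at 10.9 and 6.09 CPM in NEG and at 68.7 and 54.5 CPM in POS (log2 fold change 2.85, edgeR adjusted p = 0.00296). CG3097 was at 4.16 and 2.16 CPM in NEG and at 13.3 and 15 CPM in POS (log2 fold change 2.15, edgeR adjusted p = 0.0324). Each of these 4 genes was higher in both POS libraries than in both NEG libraries.

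tra, the sex determination gene Transformer, and w, which encodes the White eye pigment transporter, were also among the 18. tra (FBgn0003741, chromosome 3L, 16590059 to 16591050) was at 34.7 and 32.9 CPM in NEG and 204 and 215 CPM in POS, and had the smallest edgeR adjusted p of all genes at 1.44e-04 (log2 fold change 2.63, SE 0.191). w (FBgn0003996, chromosome X, 2790599 to 2796466) was at 769 and 803 CPM in NEG and 2350 and 2407 CPM in POS, a 3.03-fold difference in mean CPM (edgeR adjusted p = 0.00625). As background, the G-trace constructs are marked with a w transgene, and nuclear fluorescent reporters of the Stinger type contain a nuclear localization signal taken from Transformer. The reporters are active in POS by the definition of the sort, and reads from a transgene and from the chromosomal gene cannot be told apart in a table of counts per gene. Of the exon bases of tra, 8.58% also overlap l(3)73Ah on the opposite strand.

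The remaining 4 of the 18, like w chosen for naming after their values were seen, had the smallest changes apart from ds. Mp, which encodes the collagen-like protein Multiplexin, was at 13.7 and 15.1 CPM in NEG and 33.3 and 41.6 CPM in POS (log2 fold change 1.38). CG32091 (1.49), CG9331 (1.16) and CG43163 (1.02) completed the group on the same log2 scale, with edgeR adjusted p-values between 0.00926 and 0.0324.

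The genes lower in POS included 4 hemocyte genes. Hml (FBgn0029167, chromosome 3L, 13846054 to 13860001), encoding the clotting protein Hemolectin made by larval hemocytes, was at 200 and 199 CPM in NEG and 0.632 and 2.17 CPM in POS. That was a 143-fold difference in mean CPM, with a log2 fold change of -7.21 (SE 0.714, edgeR adjusted p = 8.68e-04). He (FBgn0028430, chromosome 2L, 13972096 to 13972947), a hemocyte surface glycoprotein with 11.6% of its exon bases shared with NimB5 on the other strand, had 186 counts in the NEG libraries and 0 in the POS libraries, at least 67.5-fold lower in POS against a floor of 3 counts over the group (edgeR adjusted p = 0.0277). NimB1, a secreted protein of the Nimrod family whose gene lies 7007 bases from He, had 170 counts in NEG and 0 in POS, at least 61.7-fold lower (edgeR adjusted p = 0.0344). Floors and counting intervals cover counting error only.

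Sr-CI (FBgn0014033, chromosome 2L, 4121702 to 4124153), a scavenger receptor of hemocytes that binds bacteria, was at 17.7 and 17.7 CPM in NEG and 2.28 and 1.47 CPM in POS. Its log2 fold change was -3.23 (SE 0.564, edgeR adjusted p = 0.0351). Tep1, a thioester-containing protein of the immune system, had 440 counts in NEG and 7 in POS, a ratio of 68.5 (95% counting interval 33.0 to 171). These levels did not overlap between the groups.

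Of the 8 hemocyte markers listed, 3 passed the test (Hml, He and Sr-CI), and all 8 had both POS libraries below both NEG libraries (100%, beside 21.0% of all genes). The median log2 fold change of the list was -4.25. Pxn, encoding the extracellular matrix enzyme Peroxidasin, was at 61.4 and 63.6 CPM in NEG and 5.10 and 5.16 CPM in POS, and its log2 fold change of -3.60 did not pass (edgeR adjusted p = 0.101, blocked adjusted p = 3.35e-05). The phagocytic receptor genes eater and NimC1 each had a log2 fold change of -4.89 from levels under 10 CPM, with edgeR adjusted p-values of 0.242 and 0.173 and blocked adjusted p-values of 0.0102 and 0.00286. crq, encoding the CD36-family receptor Croquemort, was close between the groups at 13.4 and 13.4 CPM in NEG and 11.7 and 13.2 CPM in POS. Summed over the 8 markers, NEG had 319 and 324 CPM and POS had 23.2 and 27.3 CPM, and crq alone gave 11.7 and 13.2 of the CPM in POS. The NEG sum was 12.7-fold the POS sum at IR+48h, and 11.8-fold to 13.9-fold when each library was left out. At the other times the corresponding range was 4.68-fold to 12.8-fold (IR+24h) and 3.50-fold to 6.02-fold (-IR), so the first of these rested on single libraries, and the differences between times were not tested.

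Another 6 of the lower genes had few counts in POS. Nplp2, a neuropeptide-like precursor, was at 29.1 and 14.8 CPM in NEG, with 758 counts against 1 in POS, a ratio of 826 (95% counting interval 148 to 32660). The uncharacterised genes CG15347 and CG14629 had ratios of 229 (63.1 to 1900) and 31.9 (17.1 to 67.3). Ggamma30A, a G protein gamma subunit, was at 6.2 and 13.4 CPM in NEG and 0.535 and 0.127 CPM in POS. alphaTub85E, an alpha-tubulin, was at 14.9 and 32.9 CPM in NEG and 1.02 and 0.892 CPM in POS. CG5397 was at 10.5 and 11.8 CPM in NEG and 1.22 and 1.21 CPM in POS. Their edgeR adjusted p-values lay between 0.00585 and 0.0324. Summed fat body markers were also higher in NEG (19.3 and 9.60 CPM) than in POS (6.07 and 4.33 CPM), with 0 of 5 genes called by edgeR (2 with an unadjusted p under 0.05), 0 by limma voom and 2 by DESeq2, and with Fbp2 at 0 counts in both POS libraries. The blocked fit called 1 of the 5 fat body markers. The part of attached hemocytes or fat body in the values of these genes was not tested.

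**Figure D2:**
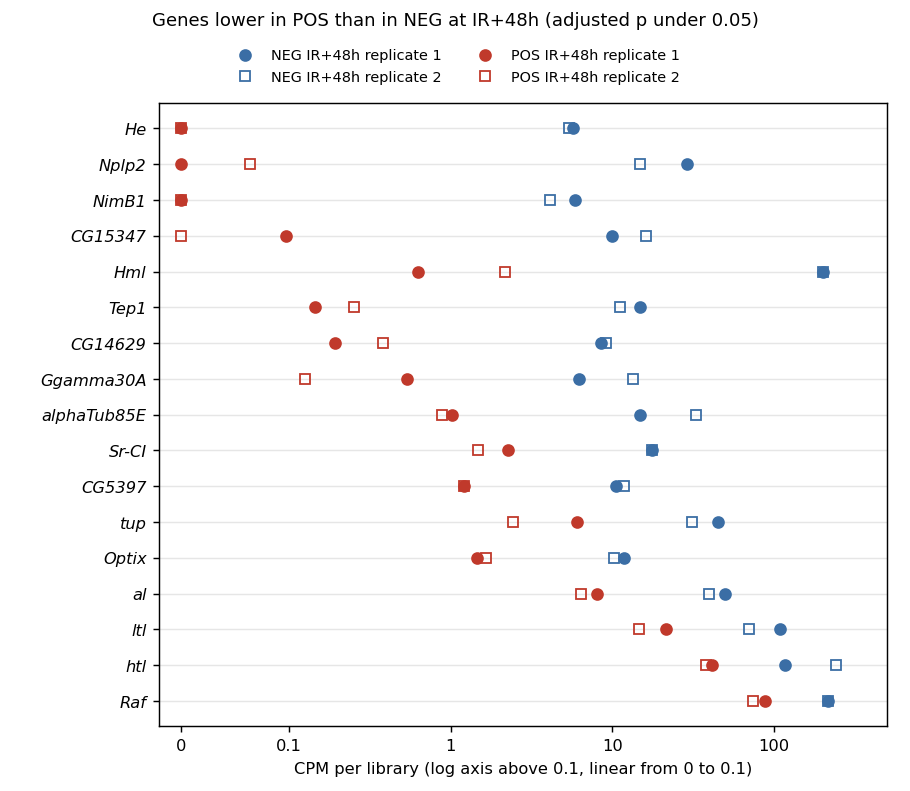
CPM (horizontal, log axis above 0.1 and linear from 0 to 0.1) of the 17 genes lower in POS at IR+48h (vertical, ordered by log2 fold change), with 1 point per library (blue NEG, red POS; filled circles replicate 1, open squares replicate 2). The blue points lie to the right of the red points for each gene, and He and NimB1 are at 0 in both POS libraries.

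The notum gene tup and 3 genes chosen for naming after their values were seen (al, Optix and ltl, which are outside the lists) were also lower in POS. tup (FBgn0003896, chromosome 2L, 18859507 to 18881261), which encodes the LIM-homeodomain protein Tailup of the notum, was at 45.1 and 31.2 CPM in NEG and 6.03 and 2.42 CPM in POS. Its log2 fold change was -3.16 (SE 0.536, edgeR adjusted p = 0.0324). al (FBgn0000061, chromosome 2L, 378112 to 387439), encoding the homeodomain protein Aristaless, was at 49.5 and 39.3 CPM in NEG and 8.02 and 6.44 CPM in POS, with a log2 fold change of -2.62 (SE 0.319, edgeR adjusted p = 0.00527). Both genes were separated between the groups.

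Optix, a homeodomain protein related to Sine oculis, was at 11.8 and 10.3 CPM in NEG and 1.46 and 1.66 CPM in POS (log2 fold change -2.82, edgeR adjusted p = 0.0418). ltl, encoding the leucine-rich repeat protein Larval translucida, was at 109 and 69.9 CPM in NEG and 21.6 and 14.6 CPM in POS (log2 fold change -2.30, edgeR adjusted p = 0.0388). The groups were separated for both.

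Of 12 notum genes only tup passed in edgeR, where 7 had an unadjusted p under 0.05. limma voom called 2 of the 12, DESeq2 3 and the blocked fit 4. Both POS libraries were below both NEG libraries for 8 (66.7%, beside 21.0% of all genes), and the median log2 fold change was -0.85. pnr, which encodes the GATA factor Pannier of the medial notum, was at 18.5 and 15.8 CPM in NEG and 3.94 and 1.02 CPM in POS. It was just outside the threshold in edgeR (log2 fold change -2.77, edgeR adjusted p = 0.0570, blocked adjusted p = 6.56e-04). It passed in limma voom (adjusted p = 0.0258) and in DESeq2 (adjusted p = 1.38e-05). The T-box gene Doc1 had a log2 fold change of -2.08 and an edgeR adjusted p of 0.0686 (blocked adjusted p = 0.00498). It passed in DESeq2 (adjusted p = 1.12e-04) and not in limma voom (adjusted p = 0.0572). In the opposite direction, 2 of the 12 had positive log2 fold changes, mirr (0.47) and B-H1 (0.59), and neither passed. For 1 of the 12 both POS libraries were above both NEG libraries (8.33%, beside 21.7% of all genes).

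Of 13 pouch genes 0 passed in edgeR, where 7 had an unadjusted p under 0.05, while limma voom called 1 (dve) and DESeq2 called 5 (vg, dve, Dll, ana and Cyp310a1), as did the blocked fit. Both POS libraries were below both NEG libraries for 9 of the 13 (69.2%, beside 21.0% of all genes), with a median log2 fold change of -0.56 that lay between -0.40 and -0.74 when each library was left out. dve, a homeodomain gene of the pouch, was at 130 and 122 CPM in NEG and 36.9 and 55.6 CPM in POS (log2 fold change -1.44, edgeR adjusted p = 0.0796, blocked adjusted p = 9.95e-04). vg, which encodes the wing selector Vestigial, was at 272 and 288 CPM in NEG and 153 and 162 CPM in POS, a log2 fold change of -0.83 (edgeR adjusted p = 0.200, blocked adjusted p = 9.95e-04). ana, encoding a secreted glycoprotein, and Cyp310a1, encoding a cytochrome P450, had log2 fold changes of -2.89 and -1.87 with edgeR adjusted p-values of 0.123 and 0.165 (blocked adjusted p = 4.34e-04 and 6.30e-04). nub, which encodes the POU protein Nubbin, overlapped between the groups at 116 and 120 CPM in NEG and 74.9 and 126 CPM in POS. Positive log2 fold changes were found for 3 of the 13, bi (0.65, edgeR adjusted p = 0.464), salm (0.26) and salr (0.02). For 1 of the 13 both POS libraries were above both NEG libraries (7.69%, beside 21.7% of all genes).

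Raf (FBgn0003079, chromosome X, 2295466 to 2343870), the kinase that links Ras to the MAP kinase cascade, was at 214 and 214 CPM in NEG and 87.8 and 73.5 CPM in POS. It had the smallest change of the 17 lower genes at -1.41 on the log2 scale (SE 0.241, edgeR adjusted p = 0.0324) and was the only gene called among 19 of the EGFR pathway. The list had a median log2 fold change of 0.09, which lay between -0.07 and 0.23 when each library was left out. Its nearest other member was kek1, which encodes a transmembrane inhibitor of EGFR, at 221 and 212 CPM in NEG and 373 and 338 CPM in POS (log2 fold change 0.72, edgeR adjusted p = 0.0565, blocked adjusted p = 0.00358).

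htl (FBgn0010389, chromosome 3R, 18045216 to 18052984), the FGF receptor Heartless of muscle precursors, was lower in POS and unevenly expressed in NEG. It was at 116 and 242 CPM in NEG and 41.4 and 37.8 CPM in POS, a log2 fold change of -2.18 (SE 0.374, edgeR adjusted p = 0.0324). It was the only call among 8 muscle precursor markers, whose median log2 fold change was -1.84, and -1.07 without NEG replicate 2. zfh1, twi, Him and stumps, genes of mesoderm and myoblasts, had log2 fold changes of -2.08, -1.81, -2.0 and -1.87 with edgeR adjusted p-values of 0.441, 0.257, 0.261 and 0.327. In the blocked fit all 4 passed, with adjusted p-values between 3.75e-05 and 4.34e-04. Ama and kirre, which encode adhesion proteins of the immunoglobulin superfamily, were higher in POS in all 4 pairs without passing (0.51 and 0.21). Summed over the 8 markers, NEG had 903 and 1776 CPM and POS had 689 and 715 CPM, so the 2 NEG libraries differed more from each other than the lower of them differed from POS.

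The muscle precursor markers differed between the times, and no test of the change was made for the list. They had a median log2 fold change of -5.01 in the -IR groups, then -2.76 (IR+24h) and -1.84 (IR+48h), and NEG summed to 4.78, 2.40 and 1.91 times POS in the same order. These ratios rest on single NEG libraries, since the NEG sums were 1048 and 2432 CPM in -IR, and leaving out 1 library gave 2.88 to 6.68 (-IR) and 1.29 to 2.53 (IR+48h). In POS the level of htl went from 2.78 and 4.16 CPM in -IR through 16.5 and 21.6 CPM (IR+24h) to 41.4 and 37.8 CPM (IR+48h), with no overlap between these 3 pairs of libraries. The change in its POS to NEG difference from -IR to IR+48h was 3.61 on the log2 scale but did not pass (edgeR adjusted p = 0.0760, blocked adjusted p = 1.03e-04).

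In the test of that change across all genes, the difference between POS and NEG at IR+48h departed from the one without IR for 2 genes (0.0188%), SPARC and Act87E. SPARC (FBgn0026562, chromosome 3R, 26869238 to 26871995) encodes a collagen-binding glycoprotein of basement membranes. In POS it went from 10.2 and 11.2 CPM in -IR through 61.8 and 80.1 CPM (IR+24h) to 139 and 102 CPM (IR+48h). NEG was at 290 and 446 CPM, 537 and 356 CPM, and 259 and 372 CPM at the same times, and was above POS throughout. The log2 difference narrowed from -5.10 to -1.39, a change of 3.71 (SE 0.403, edgeR adjusted p = 0.00996). At IR+48h alone SPARC did not pass (edgeR adjusted p = 0.0725, blocked adjusted p = 0.00307).

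Act87E (FBgn0000046, chromosome 3R, 13425983 to 13428375), a muscle actin, was at 0.408 and 0.744 CPM in POS without IR and at 6.61 and 8.41 CPM at IR+48h. In NEG it was at 39.0 and 45.3 CPM without IR and 21.0 and 27.9 CPM at IR+48h. Its log2 difference went from -6.14 to -1.70, a change of 4.44 (SE 0.509, edgeR adjusted p = 0.00996). The nearest genes past these were htl, Act57B, another muscle actin, and Nlg1, a neuroligin, each with an edgeR adjusted p of 0.0760. With the replicate block within each time point 41 genes (0.386%) passed, these 5 among them. Before adjustment 350 genes (3.30%) had a p under 0.05. The number of such calls depended on the tool and on single libraries: limma voom made 0, DESeq2 made 23, and edgeR made 0 when either NEG IR+48h library was left out, 1 without POS IR+48h replicate 2, 21 without NEG -IR replicate 1 and 8 without NEG -IR replicate 2. Muscle precursor markers moved with both genes, and their part in the change was not tested.

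**Figure D3:**
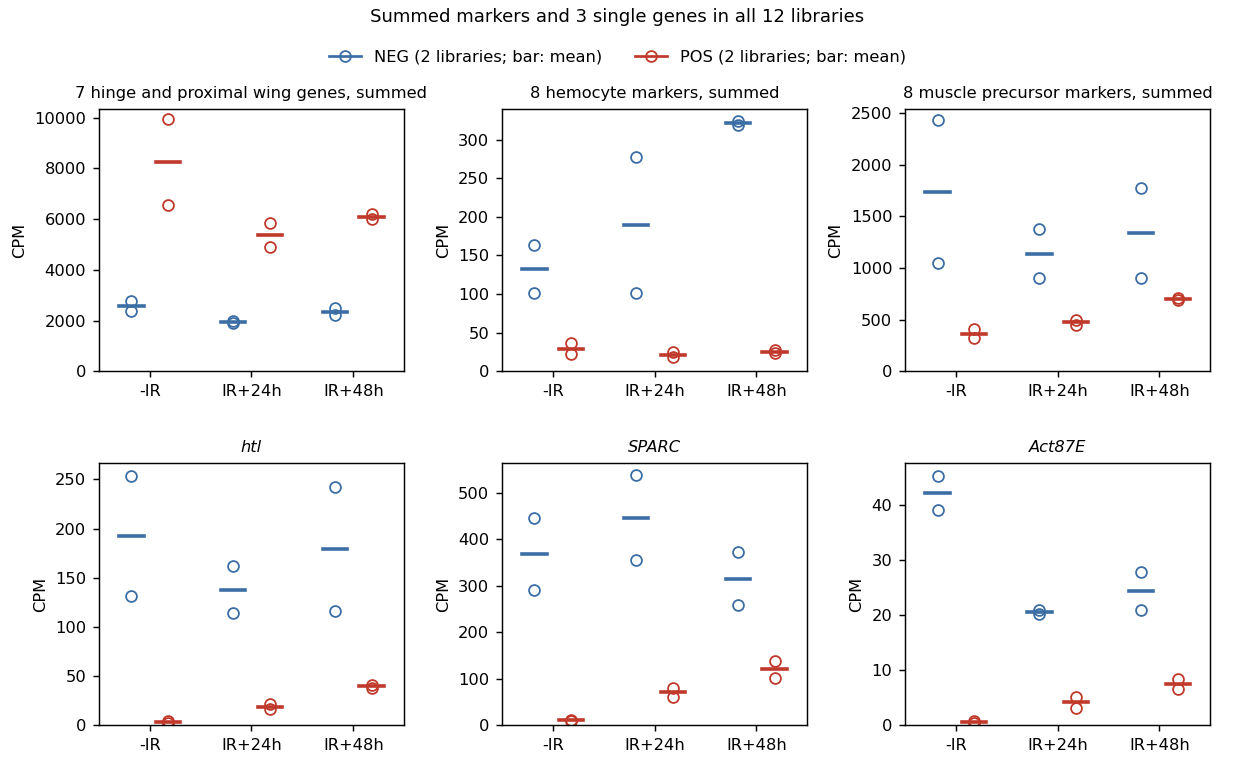
CPM (vertical axes, from 0) of the summed hinge, hemocyte and muscle precursor markers and of htl, SPARC and Act87E in all 12 libraries by time point (horizontal). Circles are single libraries (blue NEG, red POS) and bars are means of 2. In POS, htl, SPARC and Act87E are near 0 without IR and reach 37.8 to 41.4, 102 to 139 and 6.61 to 8.41 CPM at IR+48h, while the hemocyte sum stays at or under 36.2 CPM.

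SPARC belongs with 9 other listed basement membrane genes, of which 0 of 10 passed at IR+48h in edgeR (7 with an unadjusted p under 0.05), 1 passed in limma voom, 3 in DESeq2 and 7 in the blocked fit. Among the 10, 9 had both POS libraries below both NEG libraries (90.0%, beside 21.0% of all genes). Their median log2 fold change was -0.81. The collagen IV genes Col4a1 and vkg had log2 fold changes of -1.65 and -1.61, with Col4a1 at 587 and 1118 CPM in NEG and 291 and 251 CPM in POS (edgeR adjusted p = 0.404 and 0.329, blocked adjusted p = 5.30e-04 and 0.00156). trol, which encodes Perlecan, was at 1607 and 2795 CPM in NEG and 886 and 793 CPM in POS (log2 fold change -1.39, edgeR adjusted p = 0.315, blocked adjusted p = 0.00290). Ndg, encoding Nidogen, was the exception with higher values in POS, at 37.9 and 50.8 CPM beside 17.0 and 33.5 CPM in NEG (edgeR adjusted p = 0.992). Hemocytes, fat body and muscle precursors are known sources of several of these proteins, and the part of such cells in the values was not tested.

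Most of the genes that separated POS from NEG at IR+48h separated them at the other times too. Of the 35, 28 were also called at IR+24h, 28 without IR and 23 at all 3 times (14 higher and 9 lower in POS), beside 54 calls (0.509% of all genes; 0.207% higher and 0.301% lower) at IR+24h and 284 (2.67%; 0.914% higher and 1.76% lower) without IR. In the blocked fit, which made 391 calls (3.68%) at IR+24h and 1249 (11.8%) without IR, 34 and 31 of the 35 were called at those times. The contrasts share no libraries but share one estimate of the spread. Among the 18 higher genes, 15 (83.3%) were called at IR+24h, which is 68.2% of the 22 higher calls there, and 17 (94.4%) were called without IR, which is 17.5% of 97. Among the 17 lower genes, 13 (76.5%) were called at IR+24h (40.6% of 32) and 11 (64.7%) without IR (5.88% of 187). All 35 kept their sign in all 4 pairs at both other times. Over all genes, all 4 pairs were higher in 21.6% and lower in 24.7% at IR+24h, and higher in 17.0% and lower in 17.1% without IR.

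In the opposite direction, many genes called without IR did not reach the threshold at IR+48h. The 97 genes higher in POS without IR all had positive log2 fold changes at IR+48h, and 93 were higher in all 4 pairs, but their median went from 1.20 to 0.62. Of the 187 lower in POS without IR, 183 were still negative at IR+48h and 165 were lower in all 4 pairs, with the median going from -1.44 to -0.62. These genes were selected on their values without IR, and the change in median was not tested.

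Without the replicate block, only 2 of the 35 were called at IR+48h alone, NimB1 and Sr-CI. In the blocked fit 34 of the 35 were called at IR+24h, so these genes were not both particular to IR+48h there. The change between times could not be estimated for NimB1, which had 0 counts in POS, and that of Sr-CI did not pass (edgeR adjusted p = 1.0). For Sr-CI the log2 fold change was -3.23 at IR+48h, -2.22 at IR+24h and -1.67 without IR. Against IR+24h, 0 genes showed a changed POS to NEG difference in edgeR, 103 (0.970%) had an unadjusted p under 0.05, DESeq2 called 3, limma voom called 0 and the blocked fit called 5 (0.0471%). zfh2 kept a log2 fold change of 2.92 at IR+48h beside 3.02 and 3.30 at IR+24h and without IR, and Sox15 one of 3.63 beside 3.51 and 3.66, and neither gene passed the test of the difference from either time (edgeR adjusted p = 1.0).

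**Figure D4:**
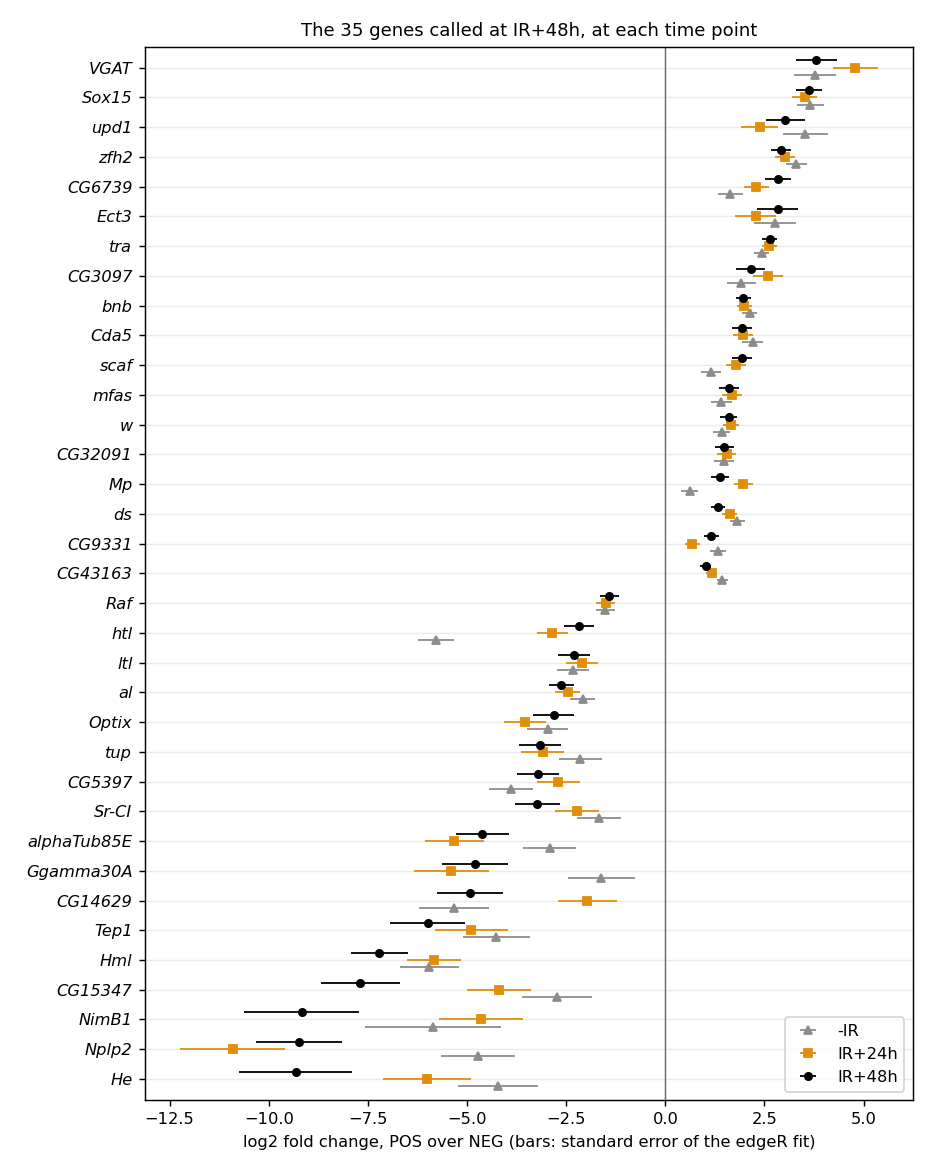
log2 fold change of POS over NEG (horizontal) for the 35 genes called at IR+48h (vertical), as grey triangles (-IR), orange squares (IR+24h) and black circles (IR+48h). Bars are SE, the approximate standard error derived from the F statistic of the edgeR test. All points of a gene lie on the same side of 0, and htl shows its smallest difference at IR+48h (-2.18, beside -5.79 without IR).

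Pathway genes were followed as lists, of which members past the test were few. The JAK/STAT pathway had 1 of 11 called, upd1, with a median log2 fold change of 0.20, which was 0.02 without NEG replicate 1 and 0.38 without NEG replicate 2. Its other ligand genes upd2 and upd3 were higher in POS without passing, upd2 at 6.49 and 10.3 CPM in NEG and 31.4 and 20.1 CPM in POS (log2 fold change 1.61, edgeR adjusted p = 0.165, blocked adjusted p = 0.00807) and upd3 with a log2 fold change of 1.15 (edgeR adjusted p = 0.614). dome, the receptor, and Ptp61F, a phosphatase that restrains the pathway, had log2 fold changes of 0.47 and 0.49 with no overlap between the groups. Their edgeR adjusted p-values were 0.400 and 0.594. The remaining members lay between -0.15 (et) and 0.20 (Socs36E), with Stat92E at -0.08 and hop at 0.07. Of the 11, 5 had both POS libraries above both NEG libraries (45.5%, beside 21.7% of all genes) and 1 had both below (9.09%, beside 21.0%).

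Fat/Ds and Hippo pathway genes had 1 of 18 called, ds, and a median of 0.04 (-0.03 to 0.08 when each library was left out). fj, which encodes a Golgi kinase that phosphorylates Fat and Ds cadherin domains, was at 179 and 196 CPM in NEG and 114 and 100 CPM in POS (log2 fold change -0.80, edgeR adjusted p = 0.250, blocked adjusted p = 0.0106), opposite in direction to ds. In the Wnt pathway 0 of 29 were called by edgeR, limma voom or DESeq2 (9 had an unadjusted edgeR p under 0.05, and 5 passed in the blocked fit) and the median was 0.07. Wnt5 was at 85.9 and 108 CPM in NEG and 130 and 137 CPM in POS (log2 fold change 0.46, edgeR adjusted p = 0.694), and Notum, a secreted inhibitor of Wnt ligands, had a log2 fold change of 0.80 (edgeR adjusted p = 0.520). kto, encoding a subunit of the Mediator kinase module, had a log2 fold change of 0.05.

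For genes of regeneration and tissue damage, 0 of 10 passed in edgeR, where 6 had an unadjusted p under 0.05, while limma voom called 1 (Ilp8), DESeq2 3 (Ilp8, Mmp1 and Ets21C) and the blocked fit 4. The median was 0.38, and 0.66 without NEG replicate 1. Both POS libraries were above both NEG libraries for 5 of the 10, beside 21.7% of all genes. In the opposite direction, 3 of the 10 had both POS libraries below both NEG libraries, beside 21.0% of all genes. The log2 fold changes were positive for 5 and negative for 5, and ranged from -0.64 to 2.28. Ilp8, an insulin-like peptide that delays metamorphosis after disc damage, was at 33.3 and 30.6 CPM in NEG and 202 and 109 CPM in POS, and was just outside the threshold (log2 fold change 2.28, SE 0.424, edgeR adjusted p = 0.0527, blocked adjusted p = 6.34e-06). Mmp1, a matrix metalloproteinase, was at 305 and 282 CPM in NEG and 633 and 488 CPM in POS (log2 fold change 0.93, edgeR adjusted p = 0.0840, blocked adjusted p = 6.00e-04). Ets21C, an ETS transcription factor induced by JNK signalling, was at 71.9 and 86.2 CPM in NEG and 256 and 172 CPM in POS (log2 fold change 1.44, edgeR adjusted p = 0.148, blocked adjusted p = 2.66e-04). Ilp8, Mmp1 and Ets21C were each higher in both POS libraries, and POS replicate 1 was the higher of the pair for each.

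edgeR called 0 genes among 17 of the Dpp pathway, 13 Hedgehog and posterior genes, 27 of the Notch pathway, 12 of the JNK pathway, 12 cell death genes, 19 ecdysone response genes, 24 cell cycle genes and 58 cuticle protein genes. In the same order 1, 1, 3, 1, 0, 0, 0 and 4 of them had an unadjusted p under 0.05, beside 6.25% of all genes. limma voom also called 0 (beside 51 of all 10617 genes). DESeq2 called 1 Notch pathway gene and 1 cuticle gene (beside 130 of all 10617). The blocked fit, which called 2.54% of all genes, called 1 Hedgehog or posterior gene, 3 Notch pathway genes, 1 JNK pathway gene and 2 cuticle genes. It called 0 of the Dpp, cell death, ecdysone response and cell cycle genes. The median log2 fold changes of these lists lay between -0.27 and 0.20 with any 1 library left out, other than for the cuticle genes, whose median of 0.14 was 0.84 without NEG replicate 1 and -0.20 without POS replicate 1. The cell cycle genes had a narrow spread of log2 fold changes, from -0.36 to 0.37. The lists of 5 tracheal, 5 neural and glial, 4 peripodial and Hox and 8 sex-limited genes also had 0 calls by edgeR, limma voom and DESeq2, with 2, 0, 2 and 0 genes at an unadjusted edgeR p under 0.05. The blocked fit called 1 tracheal gene, 2 peripodial and Hox genes and 0 in the neural and glial and the sex-limited lists. The peripodial and Hox median of -1.02 was -0.33 without NEG replicate 2 and -1.66 without POS replicate 2. Hox genes differed between the NEG libraries, with Scr at 3.57 and 30.6 CPM and Ubx at 15.9 and 43.8 CPM, where replicate 2 was the higher for both (edgeR adjusted p = 0.718 and 0.634, blocked adjusted p = 0.00695 and 9.90e-04).

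**Figure D5:**
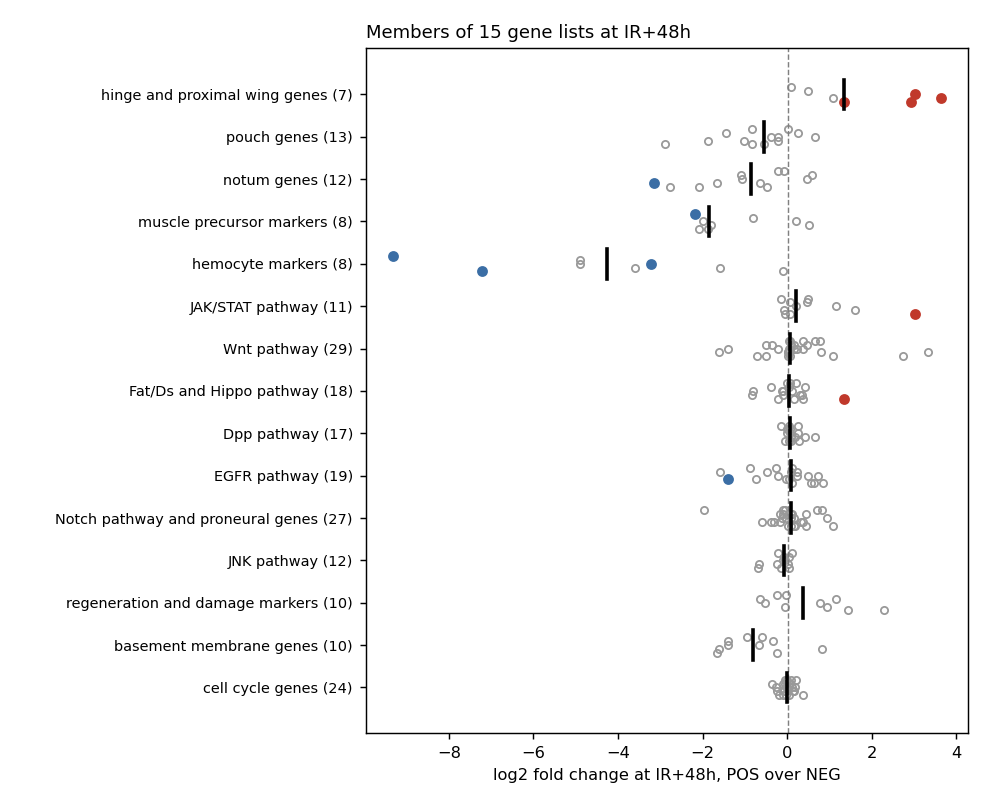
log2 fold change of POS over NEG at IR+48h (horizontal) for the members of 15 lists (vertical, number tested in brackets). Each circle is a gene, filled red or blue where it passed as higher or lower in POS and open grey otherwise, black bars are list medians and the dashed line is the median of all genes (0.01). Hinge genes lie to the right of 0 (median 1.33), hemocyte markers to the left (median -4.25), and cell cycle genes close to 0 (median -0.01).

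Ribosome biogenesis genes and Myc targets were examined with the lists chosen by the study on these samples, which are therefore no independent evidence of a direction. Of 261 ribosome biogenesis genes 0 passed at IR+48h in edgeR (11 with an unadjusted p under 0.05), limma voom or DESeq2. Of the 261, 222 had a negative log2 fold change and 129 (49.4%, beside 21.0% of all genes) had both POS libraries below both NEG libraries. Their median was -0.18, having been -0.47 without IR and -0.26 at IR+24h. RpI135, a subunit of RNA polymerase I, was at 66.1 and 71.4 CPM in NEG and 56.0 and 46.9 CPM in POS (log2 fold change -0.42, edgeR adjusted p = 0.781). Tsr1, a ribosome assembly factor, had a log2 fold change of -0.21 (edgeR adjusted p = 1.0). Of the exon bases of Tsr1, 19.4% overlap Tbc1d8-9 on the opposite strand.

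Of 164 Myc targets 0 passed in edgeR (6 with an unadjusted p under 0.05), limma voom or DESeq2, and 1 passed in the blocked fit. Their median was -0.08 (-0.09 at IR+24h and -0.26 without IR). Of the 164, 111 had a negative log2 fold change, beside 5229 of all 10617 genes. Both POS libraries were below both NEG libraries for 61 (37.2%, beside 21.0% of all genes) and above for 12 (7.32%, beside 21.7%). Myc itself was at 379 and 495 CPM in NEG and 289 and 271 CPM in POS (log2 fold change -0.64, edgeR adjusted p = 0.232, blocked adjusted p = 0.0244), and 40.9% of its exon bases overlap genes on the opposite strand. Mnt, which encodes a repressor that shares the partner Max with Myc, had a log2 fold change of -0.06, and RpII140, a subunit of RNA polymerase II, one of 0.06. Cytoplasmic ribosomal protein genes had 0 of 86 called by the same tools (0 with an unadjusted p under 0.05). Their median was -0.13, which became 0.07 without NEG replicate 1, and 78 of the 86 had a negative log2 fold change. Both POS libraries were below both NEG libraries for 17 (19.8%, beside 21.0% of all genes) and above for 2 (2.33%, beside 21.7%).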

How the data were processed

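Poly-A RNA of sorted wing disc cells was sequenced in 6 groups of 2 libraries. The authors used BBDuk to cut adapters and the 12 bases at the start of each read, kept reads of at least 50 bases, and aligned and counted with STAR 2.6.0a on Ensembl BDGP6.22 (release 97). They deposited raw counts per gene without normalization. The strand of counting is not given in the sources used here. 1 further column matched no sample and was not used. Depth and floors (3 counts) stand in the report and limit low genes only.

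Counts were fitted with edgeR 4.0.16 in R 4.3.3 (TMM, filterByExpr, quasi-likelihood F test) as 6 group means over all 12 libraries. Tests were two-sided at an adjusted p of 0.05 over 10617 genes, for POS against NEG at each time and for the difference of the IR+48h contrast from the others. The study fitted limma voom, which was run as an alternative (3.58.1), as were DESeq2 1.42.0, other size factors, other filters, a fit of only the groups compared, a replicate block, and each library left out. CPM used TMM-scaled totals. The replicate numbers come from the titles and were not modelled by the study or in the fit above. Same-numbered POS and NEG libraries deviated together with a correlation of 0.471 (-IR), 0.110 (IR+24h) and 0.162 (IR+48h), all over 0.1. A fit with a block within each time point (3 residual degrees of freedom) is therefore given as well. It stands beside named genes, the notum list and lists without an edgeR call, where it changed a call at IR+48h.

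The rule for named genes took the 12 largest called increases and 12 largest decreases with the same direction in all 4 pairs, called members of the 29 lists (for lists over 30 genes, the 3 largest), the genes the study names for RNA-seq (1 of which is not reported here), and genes called in the differences between time points. Other members are given as not past the threshold. Members and lists were chosen with earlier results of these data known. Symbols were matched to the annotation directly (16663) or by synonym (1007), and 83 were unmatched. On simulated counts of 10271 genes, the IR+48h contrast recovered 28% of 2-fold and 74% of 4-fold changes, with 4.67% of its calls unchanged genes. Changes were simulated only in POS at IR+48h and only in genes with a mean over 1 CPM. Group means were otherwise equal, and no replicate effect was simulated. The rates therefore describe that setting and do not cover genes with few counts or libraries that deviate together. Figures were drawn with matplotlib 3.10.9.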

Additional observations from a re-analysis of the deposited data

Results flagged for a closer look

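The POS to NEG difference of SPARC and Act87E differed between IR+48h and -IR in a test of the difference itself. The change was 3.71 on the log2 scale for SPARC and 4.44 for Act87E, each with an edgeR adjusted p of 0.00996. limma voom called 0 genes in this test, and edgeR called 0 when either NEG IR+48h library was left out. Muscle precursor markers moved with both genes, with a median log2 fold change of POS over NEG of -5.01 in -IR and -1.84 at IR+48h, and their part in the change was not tested. Both genes were lower in POS than in NEG in every pair of libraries at each of the 3 times.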

How the results depend on the processing

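The 35 calls at IR+48h kept their direction wherever they could be fitted, and 21 of them passed in every alternative that kept all libraries and could fit them (13 in all of these alternatives). limma voom called 51 genes (25 higher, 31 of the 35 shared), size factors of the DESeq2 type 33, library size alone 40 (23 higher) and a minimum log2 fold change of 1 called 35. DESeq2 called 130 (45 higher), no filter 255 (88 higher), the groups compared alone 172 (59 higher) and a filter of 1 CPM in all libraries 13 (12 higher), which could fit only 22 of the 35. Leaving out 1 library of IR+48h gave 7 to 15. For the difference from -IR, limma voom called 0 genes, DESeq2 23, no filter 91, the 1 CPM filter 1 and the groups compared alone 1, and leaving out 1 library gave 0 to 3 at IR+48h and 2 to 21 without IR, the latter an alternative chosen after seeing the data. For the difference from IR+24h, DESeq2 called 3, no filter 17, and leaving out 1 library gave 0 to 1. With the replicate block the counts were 36 at IR+48h (33 of the 35 shared), 2 against -IR and 0 against IR+24h, and with the replicate block within each time point they were 270, 41 and 5. Some genes given with a value at IR+48h, none of them past the threshold, altered the sign of their log2 fold change with 1 library left out. They were kto (-0.00 to 0.08), RpII140 (-0.05 to 0.16), Mnt (-0.19 to 0.08), tsh (-0.08 to 0.26) and nub (-0.66 to 0.09). The pouch genes salm (-0.04 to 0.50) and salr (-0.37 to 0.54) and the notum gene B-H1 (-0.14 to 1.30), given above as positive, were also among them. The cause of these differences between settings was not tested, other than that fewer libraries or genes were fitted where the setting says so. With 2 libraries per group, small changes are often missed and an uncalled gene is not shown to be equal.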
